A study of Canis lupus familiaris with 33 samples.

Results

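Canine invasive urothelial carcinoma (iUC) tumors were ranked by the expression of 6 genes of dividing cells, and the 10 tumors with the highest mean were compared with the 10 with the lowest. The ranking used the mean of the deposited values of TOP2A, CDK1, AURKA, PLK1, BIRC5 and TPX2 in each of 29 tumors, so that 20 of 29 tumors, of 33 samples in all, entered the comparison. In what follows the 10 highest are called fast and the 10 lowest slow. These names stand for the rank of this mean only, since cell division itself was not measured. The classes were thus chosen by the measured values of these 6 genes. The mean is referred to as the score, and the 6 genes were left out of every test.

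RNA was sequenced from 29 iUC tumors and from 4 samples of normal bladder mucosa. The tumors were cystoscopic biopsies of untreated pet dogs of any age, sex or breed, a single biopsy per dog, and all were high grade. The normal mucosa was dissected from the bladders of dogs euthanized for unrelated conditions. No genotype, agent or time point separates the tumors, and the fast and slow tumors share tissue, collection and sequencing batch as far as the labels and the methods state.

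Cells that divide copy their DNA in S phase and separate the copies in mitosis. The genes for both steps are switched on and off together, by E2F transcription factors ahead of S phase and by MYBL2 and FOXM1 with the MuvB complex ahead of mitosis. Of the scoring genes, TOP2A encodes the topoisomerase that untangles sister DNA molecules, CDK1 the kinase that drives entry into mitosis, AURKA and PLK1 kinases of the centrosome and spindle, TPX2 the spindle protein that activates the AURKA protein, and BIRC5 survivin, a subunit of the chromosomal passenger complex. In bladder cancer, high levels of such genes are a familiar feature of high grade tumors.

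The values are log2 normalized expression minus the median of the gene over the 33 samples, so that 0 is the median sample and a difference of 1 is a 2-fold change. In the fast tumors the score ran from 0.318 in tumor Mi to 1.27 in tumor 18, with a median of 0.590. In the slow tumors it ran from -1.87 in tumor 2 to -0.0767 in tumor 16, with a median of -0.340. The ranges are separate because the ranking made them so. At the thresholds the steps were small: tumor 3 lay just outside the fast class at 0.306, next to tumor Mi, and tumor Ja just outside the slow class at -0.0306, next to tumor 16. The 9 tumors between the classes therefore join them without a gap. In the 4 normal samples the score was between -3.20 and -2.39, below that of every tumor.

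**Figure D1:**
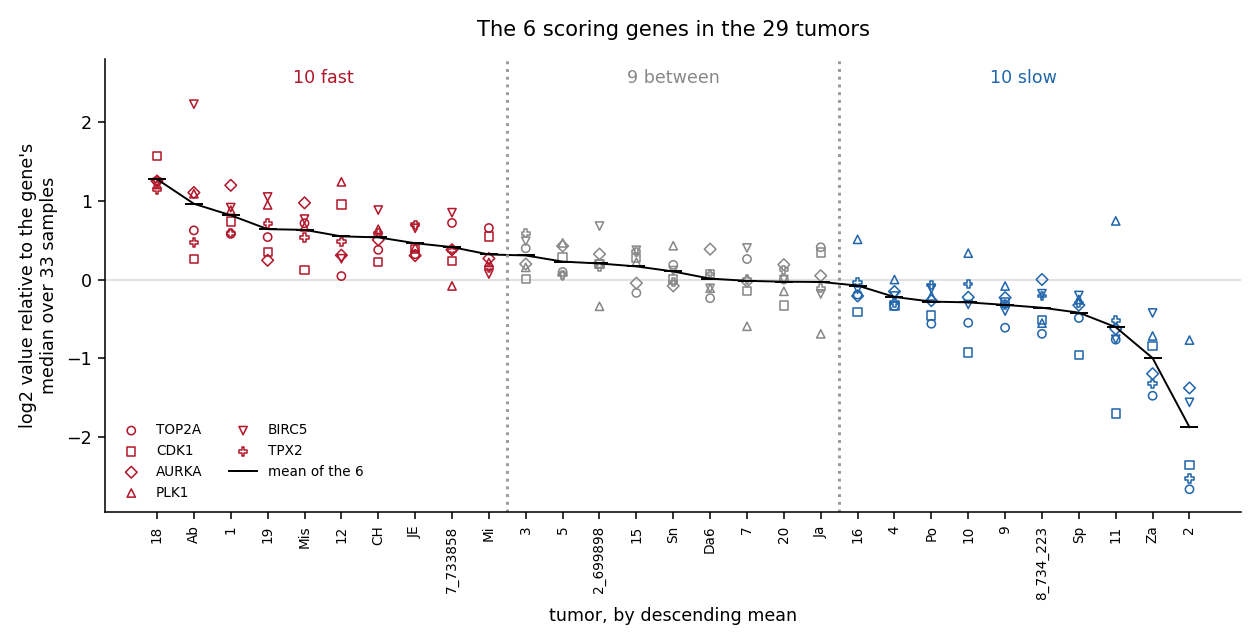
The 6 scoring genes (symbols) and their mean (black line) in the 29 tumors, in descending order of the mean, on the log2 scale relative to the median of each gene over 33 samples. Tumor 18 is highest at 1.27, tumor 2 lowest at -1.87, and the values run on without a gap across both dotted thresholds.

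The scoring genes varied together over the 29 tumors. Over the 15 pairs of genes, Pearson's r had a median of 0.822 and ran from 0.522 to 0.926, as a description of genes measured in the same libraries. PLK1 followed the ranking least closely. Its value was -0.0816 in fast tumor 7_733858 and 0.744 in slow tumor 11, so that the classes overlapped for this gene, whereas for each of the other 5 genes every fast tumor lay above every slow tumor. Without PLK1 or without TPX2 the classes held the same 20 tumors, and without any other scoring gene at most 1 tumor of each class changed. No tumor moved from one class to the other.

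Across 19232 tested genes, 112 were higher and 47 lower in fast tumors at an adjusted p of at most 0.05 (limma with Benjamini-Hochberg adjustment over all tested genes). This is 0.582% of the tested genes in the upward direction and 0.244% in the downward direction. The log2 difference of fast minus slow tumors ran from 0.54 to 2.00 among the higher genes, with a median of 1.16, and 76 of them differed at least 2-fold. Among the lower genes it ran from -5.61 to -0.64, with a median of -1.75. Over all tested genes the median difference was -0.08, 57.4% of the differences were negative, and 2656 genes (13.8%) had an unadjusted p of at most 0.05. Genes of the cell cycle filled most of the higher group: 63 of the 112 belong to at least 1 of 8 lists of cell-cycle genes. Of all 19232 tested genes, 195 belong to these 8 lists. Of the other higher genes, 40 carry a symbol outside every list, and 9 have no symbol. No lower gene belongs to any of the 23 lists examined. These lists hold 603 entries, of which 423 are in the table used here.

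**Figure D2:**
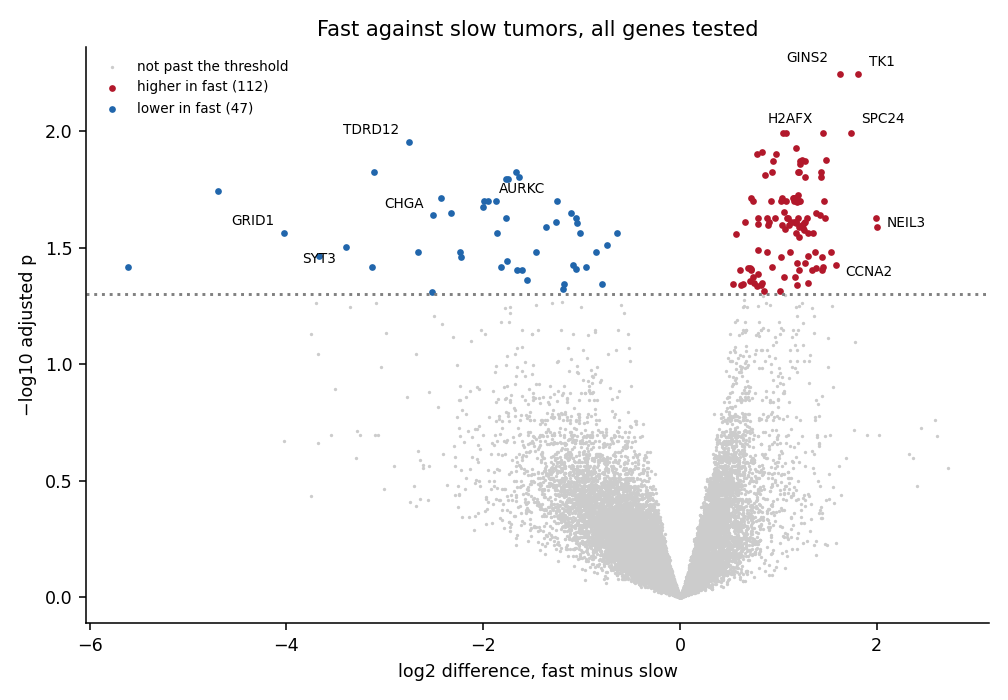
Each point is a gene, with the log2 difference between fast and slow tumors on the x axis and −log10 of the adjusted p on the y axis; the dotted line marks an adjusted p of 0.05. The 112 genes higher in fast tumors lie in a narrow band of differences, while the 47 lower genes reach much larger differences, down to -5.61.

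The counts changed with the tumors and the model. With 14 tumors a class 10 genes were higher and 1 lower, and with the mean of the epithelial markers as a covariate in the same 20 tumors 2 were higher and 2 lower. Leaving out tumor 18, the tumor with the highest score, gave 49 higher and 20 lower genes. Without tumor 19 they were 62 and 21, and without tumor Za 67 and 26. The lower count alone was 29 without tumor Po, 30 without tumor Ab and 72 without tumor 2. Further, 4 of the 20 tumors (fast tumor 1 and slow tumors 9, Po and Za) stood out in 300 genes for olfactory receptors. In each of the 4, more than 40% of these genes exceeded the lowest value that samples shared for the gene. These genes are not expected to be active in bladder. Without these 4, with 9 fast and 7 slow tumors, limma called 0 genes in either direction, the lowest adjusted p was 0.0541, and 829 genes had an unadjusted p of at most 0.05 with a positive and 916 with a negative difference. All 112 and all 47 genes kept their direction there, with medians of 1.16 and -1.79. They had been selected on the gap between the classes with these tumors included, so a kept direction was likely. The classes were formed from the same libraries in which the genes were then measured, and the p-values describe which genes went with the score in these tumors.

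Spindle and kinetochore genes made up the largest number of higher genes of any list. The kinetochore is the protein assembly that ties each chromosome to spindle microtubules. Of 37 tested members, 22 rose and none fell in fast tumors, or 59.5% against 0.582% of all tested genes. All 37 differences were positive, with a median of 1.16. SPC24, a subunit of the NDC80 complex that binds microtubules, was between -0.06 and 1.49 in fast tumors (median 0.81) and between -2.84 and -0.20 in slow tumors (median -0.69). The lowest fast tumor thus lay above the highest slow tumor, and the difference was 1.74 (SE 0.275, adjusted p = 0.0102, limma). CENPN, which recognizes the centromeric nucleosome, was between 0.06 and 1.71 in fast tumors (median 0.68) and between -2.27 and -0.10 in slow tumors (median -0.55), again without overlap, with a difference of 1.44 (SE 0.256, adjusted p = 0.015). KIF18B, a kinesin that shortens astral microtubules, was between 0.37 and 1.07 in fast tumors and between -3.67 and 0.05 in slow tumors. Its difference was 1.54 (SE 0.338, adjusted p = 0.033), and the spread of the slow tumors (SD 1.08) was larger than that of the fast tumors (SD 0.23).

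Among the other members that rose, CENPA, the histone variant that marks the centromere, differed by 1.24, NDC80 by 1.37, the checkpoint kinase BUB1 by 1.27 and the checkpoint protein MAD2L1 by 1.06. AURKB, the kinase partner of survivin in the passenger complex, differed by 1.08, and SGO1, which protects cohesion at the centromere, by 1.02. Among these 6 genes, the classes overlapped only for MAD2L1, where a fast tumor at -0.53 lay below the highest slow tumor at 0.10. Not every member passed: the difference was 1.54 for HJURP, the chaperone that deposits CENPA (adjusted p = 0.0566), and 1.36 for TTK, the apical checkpoint kinase (adjusted p = 0.0619). For SKA1 and SKA3, subunits of the complex that follows shortening microtubules, it was 0.19 and 0.13.

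Genes of mitotic entry, exit and cytokinesis rose as well. Of 31 tested members, 16 rose (51.6%, against 0.582% of all tested genes) and none fell. All 31 differences were positive, and their median was 1.12. CCNA2, the cyclin of S phase and early mitosis, was between -0.29 and 2.49 in fast tumors (median 1.17) and between -2.17 and 0.70 in slow tumors (median -0.36). In 7 fast tumors it exceeded every slow tumor, and the difference was 1.58 (SE 0.356, adjusted p = 0.0375). CCNB1, the cyclin partner of the kinase CDK1, was between 0.00 and 1.61 in fast tumors and between -2.24 and 0.27 in slow tumors, with a difference of 1.17 (SE 0.27, adjusted p = 0.0424). DEPDC1B, a regulator of the release of adhesion before mitosis, differed by 1.48 (SE 0.253, adjusted p = 0.0133), and MELK, a mitotic kinase, by 1.27 (SE 0.22, adjusted p = 0.0135). For MELK all 10 fast tumors exceeded every slow tumor, and for DEPDC1B 8 did.

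Genes of chromosome separation and cytokinesis were among the 16. PTTG1, which encodes securin, differed by 1.46, PRC1, which bundles microtubules of the midzone, by 1.20, and the kinesins KIF20A and KIF14 of cytokinesis by 1.46 and 1.19. Condensin subunits NCAPG, NCAPG2, NCAPD3 and SMC2 rose by 0.94 to 1.30. For NCAPG 9 slow tumors lay below every fast tumor, while 1 slow tumor reached 0.85, a value that 1 fast tumor exceeded. CDC20, an activator of the anaphase-promoting complex, was between -0.41 and 1.46 in fast and between -1.03 and 0.81 in slow tumors, a difference of 0.50 that did not pass (adjusted p = 0.379). The ubiquitin-conjugating enzyme UBE2S, which works with the same complex, rose by 0.83 (adjusted p = 0.0447), and the difference between these genes was not tested. CDC23, a subunit of the complex outside the lists, was named after its values were seen and rose by 0.70 (adjusted p = 0.0386). PKMYT1, an inhibitory kinase of mitotic entry, had a difference of 0.04.

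**Figure D3:**
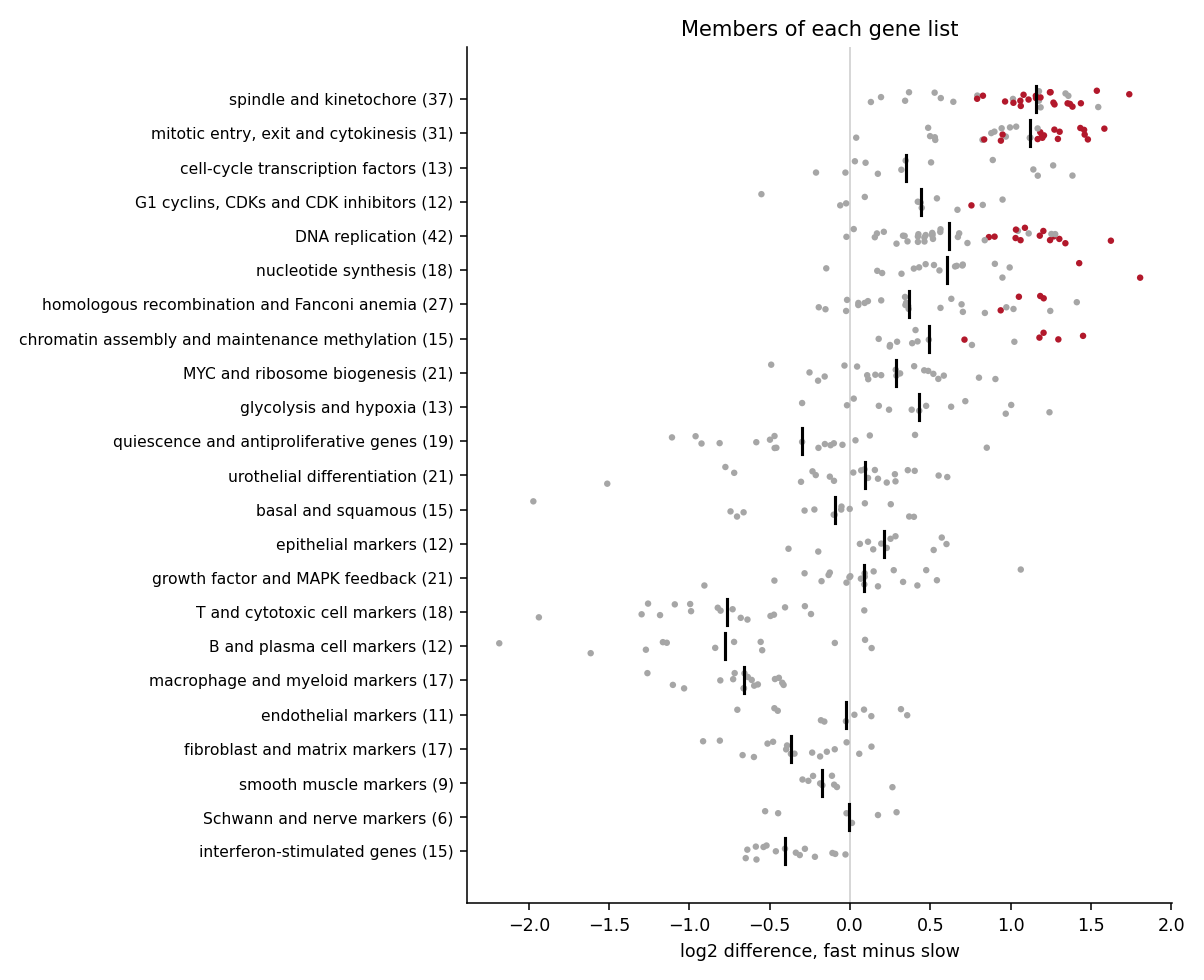
Log2 difference between fast and slow tumors (x axis) for every tested member of each gene list, with the number of members in brackets; red points passed the test upward, gray points did not pass, and black bars are list medians. The red points lie in the cell-cycle lists, with medians up to 1.16, and the 3 lists of immune cells have medians of -0.78 to -0.66 without a member past the threshold.

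Among DNA replication genes, of 42 tested members, 13 rose (31.0%, against 0.582% of all tested genes) and none fell. Of the differences 41 were positive, and the median was 0.62. GINS2, a subunit of the replicative helicase, was between 0.42 and 1.70 in fast tumors (median 1.09) and between -1.76 and -0.03 in slow tumors (median -0.34). The classes were separate, and the difference of 1.62 (SE 0.227) had the lowest adjusted p of the comparison, 0.00567, which it shared with TK1. MCM2, a subunit of the helicase core, was between 0.48 and 1.35 in fast tumors (median 0.79) and between -2.00 and 0.12 in slow tumors (median -0.27), also without overlap, with a difference of 1.24 (SE 0.212, adjusted p = 0.0133).

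The members that rose covered licensing, unwinding and synthesis. The licensing factors CDT1, CDC6 and ORC6 differed by 1.27, 1.30 and 1.34, the initiation factor MCM10 by 1.20, and GINS4 by 1.09. POLE, the catalytic subunit of the leading-strand polymerase, differed by 1.06, the sliding clamp PCNA by 0.86 and the flap endonuclease FEN1 by 0.90. MCM3 and MCM5, which encode subunits of the same helicase ring as MCM2, had differences of 1.28 and 1.25 that stayed just above the threshold (adjusted p = 0.0503 and 0.083). At the other end, the origin recognition subunits ORC4 and ORC5 had differences of 0.02 and -0.02.

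Nucleotide synthesis was represented by 2 of 18 tested members (11.1%, against 0.582% of all tested genes). TK1, the thymidine kinase of S phase, was between 0.41 and 2.08 in fast tumors (median 0.93) and between -2.43 and -0.28 in slow tumors (median -0.78). The classes did not overlap, and the difference was 1.81 (SE 0.254, adjusted p = 0.00567). DCK, which phosphorylates deoxycytidine, was between -0.13 and 1.06 in fast and between -2.57 and 0.29 in slow tumors, a difference of 1.43 (SE 0.287, adjusted p = 0.023). Of the 16 other members none passed. The difference was 0.99 for RRM2, the inducible subunit of ribonucleotide reductase (adjusted p = 0.112), 0.65 for RRM1, its partner (adjusted p = 0.0529), and 0.90 for TYMS, thymidylate synthase (adjusted p = 0.0919). CAD, the first enzyme of pyrimidine synthesis, had a difference of -0.15.

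Genes of homologous recombination and the Fanconi anemia pathway repair broken and crosslinked DNA during S phase. Of 27 tested, 4 rose (14.8%, against 0.582% of all tested genes) and none fell. CHEK1, the kinase that restrains the cell cycle when replication stalls, was between 0.25 and 1.20 in fast tumors and between -1.27 and -0.18 in slow tumors, with a difference of 1.05 (SE 0.161, adjusted p = 0.0102). FANCD2, which is ubiquitinated at crosslinks, was between 0.41 and 1.17 in fast and between -1.78 and 0.09 in slow tumors, with a difference of 1.18 (SE 0.193, adjusted p = 0.0118). Both genes separated the classes, as did BRCA1, with a difference of 1.21 (adjusted p = 0.015). FANCI, the partner of the FANCD2 protein, rose by 0.94. BRCA2 had a difference of 0.34 (adjusted p = 0.467), and the damage-sensing kinases ATM and ATR had differences of 0.09 and -0.20.

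Chromatin assembly and maintenance methylation contributed 5 of 15 tested genes (33.3%, against 0.582% of all tested genes). H2AFX, the histone variant phosphorylated at DNA breaks, was between 0.15 and 1.89 in fast tumors and between -1.72 and -0.10 in slow tumors, without overlap, with a difference of 1.45 (SE 0.229, adjusted p = 0.0102). ASF1B, a chaperone of new histones, differed by 1.20 (SE 0.246, adjusted p = 0.0236), UHRF1, which guides methylation to copied DNA, by 1.30, ATAD2, a bromodomain ATPase, by 1.18, and lamin B1 (LMNB1) by 0.71. EZH2, the methyltransferase of Polycomb repressive complex 2, had a difference of 0.41 (SE 0.215, adjusted p = 0.408). The classes overlapped, with 1.15 as the highest fast and 1.08 as the highest slow value. All 10 fast tumors lay above the slow median, and 6 slow tumors lay below every fast tumor. Histone genes were also examined outside the list, after their values were seen. Among 9 tested genes with histone symbols, H2AFX included, 5 rose and 8 differences were positive. HIST1H4C, H2BC18, HIST3H2A and H3C13 differed by 1.03 to 1.22. Apart from the variant genes such as H2AFX, many histone genes are nearly identical copies, so reads may have been divided among them, and the libraries were made by removal of ribosomal RNA, which keeps transcripts without a poly(A) tail.

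Of 13 tested cell-cycle transcription factors and pocket proteins, 0 passed under limma, where 0.582% of all tested genes rose, and 8 had an unadjusted p of at most 0.05, compared with 13.8% of all tested genes. Of their differences 11 were positive. With the score as a number over all 29 tumors 5 of the 13 rose, namely E2F2, E2F7, E2F8, LIN9 and MYBL2. E2F8, an atypical repressor, was between -0.07 and 1.23 in fast and between -2.91 and 0.22 in slow tumors, with a difference of 1.17 (SE 0.306, adjusted p = 0.0827). For LIN9, a MuvB subunit, every fast tumor (0.00 to 1.64) lay above every slow tumor (-1.27 to -0.03), and the difference was 0.89 (SE 0.236, adjusted p = 0.0868). MYBL2 had a difference of 1.26 (SE 0.344, adjusted p = 0.0969). For RB1, which encodes the retinoblastoma protein, it was 0.35 (SE 0.161, adjusted p = 0.347). MKI67, E2F1 and FOXM1 were not analysed here.

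Among the cyclins, kinases and inhibitors that control G1, the phase before S phase, 1 of 12 tested genes rose (8.33%, against 0.582% of all). CDK2, the kinase partner of cyclins E and A, was between -0.11 and 0.70 in fast tumors (median 0.44) and between -1.08 and 0.06 in slow tumors (median -0.17), with a difference of 0.76 (SE 0.176, adjusted p = 0.0447). CDC25A, the phosphatase that activates the CDK2 kinase, had a difference of 0.67 (SE 0.178, adjusted p = 0.0879), and CCNE1, cyclin E1, of 0.45 (SE 0.221, adjusted p = 0.378). CCND1, cyclin D1, was between -1.52 and 1.76 in fast and between -2.14 and 1.84 in slow tumors. The ranges nearly coincided, and the difference of 0.54 (SE 0.457, adjusted p = 0.606) was about as large as its error. CDKN1A, which encodes the inhibitor p21, had a difference of -0.06 (SE 0.291, adjusted p = 0.94), a value that turned positive when slow tumor 2, at 2.22, or fast tumor 7_733858 was left out. CDKN2A was not analysed here.

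**Figure D4:**
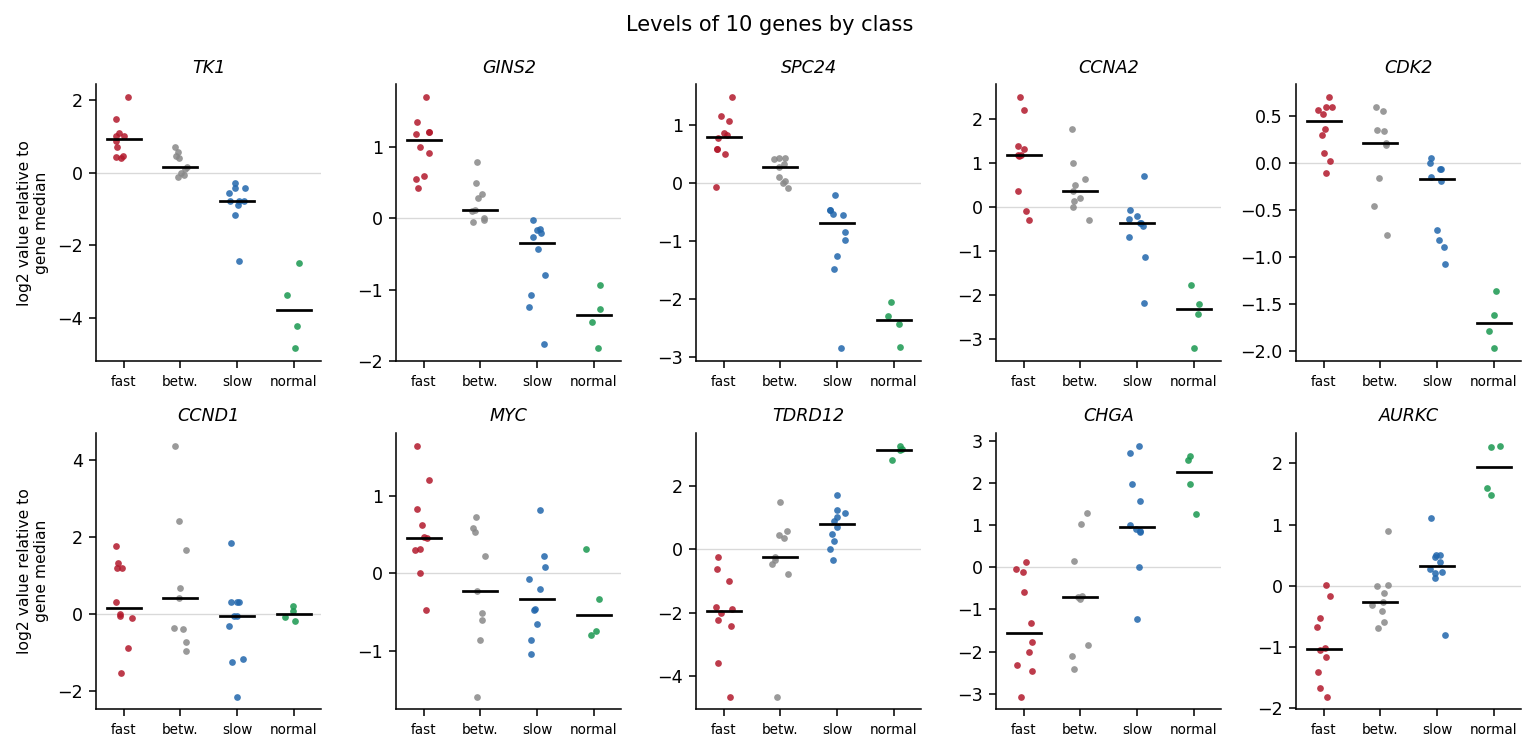
Log2 values relative to the gene median for 10 genes in the fast (10), between (9), slow (10) and normal (4) samples; each point is a sample and each bar the median of its class. TK1, GINS2 and SPC24 separate fast from slow tumors, CCND1 and MYC do not, and TDRD12, CHGA and AURKC run in the opposite direction.

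For 111 of the 112 higher genes and 37 of the 47 lower genes, the median of the 9 tumors that entered neither class lay between the medians of the fast and slow tumors. Among all tested genes this held for 43.3% of those with a positive and 37.8% of those with a negative difference. The 112 and 47 genes were selected on the gap between the classes, which makes such a position more likely. When the score entered as a number over all 29 tumors, 255 genes rose and 82 fell with it (1.33% and 0.426% of the tested genes). In that fit 31 of 37 spindle and kinetochore genes, 28 of 31 genes of mitotic entry and exit, 22 of 42 replication genes, and 5 of 13 transcription factors rose. Of 19 quiescence and antiproliferative genes, 1 fell with the score, ZFP36, which promotes the decay of messenger RNA. Of the 112 genes, 103 were lower in all 4 normals than in every fast tumor, compared with 18.1% of all tested genes, and 33 were also lower in all normals than in every slow tumor, compared with 11.8%. NEIL3 and DDIAS ran against this, with normal medians of 0.55 and 0.57.

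In 38 genes every fast tumor lay above every slow tumor (0.198% of those tested), and 35 of them passed the test. The other 3 were LIN9, DEPDC1 and NUP85, named here after their values were seen, with differences of 0.89, 1.03 and 0.61. ZBTB37, a zinc-finger gene with a difference of -0.64 (adjusted p = 0.0275), was the 1 gene for which every fast tumor lay below every slow tumor (0.0052%).

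The higher genes outside the lists were not grouped. NEIL3, a DNA glycosylase that unhooks crosslinks, had the largest difference of the 112, 2.00 (SE 0.421, adjusted p = 0.0257). In 9 fast tumors it exceeded every slow tumor, whereas tumor 1 was at -2.48, next to the lowest slow tumor at -2.49. DIAPH3, a formin that nucleates actin filaments, was between 0.30 and 1.68 in fast tumors and between -2.98 and -0.02 in slow tumors, with a difference of 1.47 (SE 0.301, adjusted p = 0.0236). Named after their values were seen, PLK4, the kinase that starts centriole duplication, differed by 1.21, STMN1, which destabilizes microtubules, by 1.26, ESCO2, which acetylates cohesin, by 1.39, and USP1, which removes ubiquitin from the FANCD2 protein, by 0.79. SLC7A5, a transporter of large neutral amino acids, differed by 1.19 (adjusted p = 0.0199).

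Chromosome 13, which holds MYC, is often gained in canine iUC. Of 289 tested genes there, 4 rose (DCK, DSCC1, ATAD2 and RAD21), which is 1.38% compared with 0.884% of the 11532 tested genes with a known chromosome, and 0 fell (limma). DCK and ATAD2 are among the list members described above. On this chromosome the median difference was 0.20, compared with -0.08 over all tested genes, which include those without a known chromosome. RAD21, a cohesin subunit, was between 0.00 and 0.68 in fast and between -0.52 and 0.38 in slow tumors, with a difference of 0.72 (adjusted p = 0.0193). DSCC1, which helps to load the sliding clamp, differed by 1.18 (adjusted p = 0.0246). These genes were named after their values were seen. DNA copy number was not measured in these samples.

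MYC itself was between -0.47 and 1.66 in fast tumors (median 0.46) and between -1.04 and 0.83 in slow tumors (median -0.33), with a difference of 0.80 (SE 0.258, adjusted p = 0.174). Of 21 tested genes of MYC and ribosome biogenesis, 0 passed under limma, 5 had an unadjusted p of at most 0.05 (13.8% of all tested genes did), and the median difference was 0.28. POLR1C, a subunit shared by RNA polymerases I and III, had a difference of 0.90 (adjusted p = 0.201). For 13 tested genes of glycolysis and hypoxia the median was 0.43, with 0 past the threshold and 4 with an unadjusted p of at most 0.05. The phosphofructokinase gene PFKP came nearest, between 0.17 and 2.65 in fast and between -1.19 and 1.24 in slow tumors, with a difference of 1.24 (SE 0.299, adjusted p = 0.0545). HK1, a hexokinase, had a difference of 0.72 (adjusted p = 0.19).

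Among 19 tested quiescence and antiproliferative genes, 0 passed between the classes under limma, and 4 had an unadjusted p of at most 0.05. Over all tested genes 0.827% passed in either direction and 13.8% had such an unadjusted p. Of the 19 differences 15 were negative (57.4% over all tested genes), with a median of -0.30. The extremes were DUSP1, a phosphatase of MAP kinases, at -1.11 (SE 0.441, adjusted p = 0.278), and KLF4, a transcription factor of epithelial differentiation, at 0.85 (SE 0.347, adjusted p = 0.29).

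Of the 47 lower genes none belongs to a list, and 14 have no symbol. In 17, at least 1 fast or slow tumor was at the lowest value that samples shared for the gene. This held for 1 of the 112 higher genes and for 23.5% of all tested genes. In 6 of the 47, fewer than 10 tumors outside the slow class were above the lowest value, so that these genes entered the test only through the class in which they were high and had to differ. Described next are the 8 with the largest fall among those that carry a symbol and were above the lowest value in at least 20 tumors or had no such value, and some genes outside these limits fell further. GRID1, a glutamate receptor of the delta type, was between -3.35 and 0.98 in fast tumors (median -2.27) and between -1.22 and 7.27 in slow tumors (median 1.23), with a difference of -4.03 (SE 0.858, adjusted p = 0.0273) and 2 fast tumors at the lowest value. SYT3, a synaptotagmin of vesicle release, differed by -3.40 (SE 0.74, adjusted p = 0.0316), with 4 fast tumors at the lowest value. CHGA, which encodes chromogranin A of secretory granules, was between -3.07 and 0.13 in fast and between -1.22 and 2.88 in slow tumors, a difference of -2.51 (SE 0.505, adjusted p = 0.023). HOMER2, a scaffold of synapses, differed by -2.66 (SE 0.583, adjusted p = 0.033), and RAMP1, a subunit of the receptor for calcitonin gene-related peptide, by -2.52 (SE 0.599, adjusted p = 0.0493), the latter with 4 fast tumors at the lowest value.

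TDRD12, a tudor-domain protein of the piRNA pathway, was between -4.65 and -0.23 in fast tumors and between -0.32 and 1.71 in slow tumors, so that 9 fast tumors lay below every slow tumor, and the difference was -2.76 (SE 0.444, adjusted p = 0.0111), with 1 fast tumor at the lowest value. AURKC, the aurora kinase of meiosis, named after its values were seen, fell by 1.25 on the log2 scale (adjusted p = 0.0199). ADGB (androglobin, of testis) differed by -2.33 (SE 0.467, adjusted p = 0.0225) and NIM1K, a kinase of the AMPK-related family, by -2.00 (SE 0.397, adjusted p = 0.0211), the latter with 3 fast tumors at the lowest value.

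Measures of low-level signal were compared between the classes as well. The percentage of the 300 olfactory receptor genes that exceeded their lowest value was between 4.67% and 51.0% in fast tumors (median 12.7%) and between 11.3% and 87.3% in slow tumors (median 21.3%; two-sided permutation p = 0.175 with 100000 resamples, adjusted p = 0.175 over 3 library measures). In the normals it was between 99.7% and 100%. The number of genes at the lowest value was between 6210 and 8175 in fast and between 4189 and 7058 in slow tumors (permutation p = 0.0695, adjusted p = 0.104). The commonest ratio of low values to the lowest value, which is smaller in deeper libraries if that lowest value stands for no reads, was between 1.64 and 2.16 in fast and between 1.96 and 2.22 in slow tumors (permutation p = 0.0124, adjusted p = 0.0372). Of the 47 lower genes, 26 were above the slow median in all 4 normals, compared with 41.0% of all tested genes. With the number of genes at the lowest value as a covariate, 32 genes passed upward and 9 downward. The part of stray reads and depth in these results was not tested.

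Of 21 tested genes of urothelial differentiation and 15 of basal and squamous cells, 0 passed under limma, where 0.827% of all tested genes passed in either direction. An unadjusted p of at most 0.05 was found for 1 and 0 of them (13.8% of all tested genes), with median differences of 0.09 and -0.10. PPARG, the nuclear receptor of luminal cells, had a difference of 0.40 (SE 0.235, adjusted p = 0.454), and the uroplakin UPK2 one of -0.10 (SE 0.337, adjusted p = 0.912). KRT20, the keratin of umbrella cells, was between -1.57 and 3.90 in fast and between -1.57 and 3.01 in slow tumors, with 4 fast and 1 slow tumor at the lowest value, and a difference of -1.51 (SE 0.634, adjusted p = 0.3). For the basal genes PI3, an elastase inhibitor, and DSC3, a desmocollin, the differences were -1.97 (SE 0.964, adjusted p = 0.372) and -0.70 (SE 0.381, adjusted p = 0.421). KRT5 was not analysed here.

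Growth factor receptors and the feedback genes of the MAP kinase pathway gave a median of 0.09 over 21 tested genes, with 0 past the threshold and 2 with an unadjusted p of at most 0.05, compared with 13.8% of all tested genes. EGFR, the epidermal growth factor receptor, had a difference of -0.28 (SE 0.177, adjusted p = 0.483). For ERBB2, its relative HER2, the difference was -0.13 (SE 0.255, adjusted p = 0.848), and the highest value, 2.25, belonged to slow tumor 11. FGFR3, the fibroblast growth factor receptor of luminal bladder tumors, had one of 0.09 (SE 0.294, adjusted p = 0.911). The largest differences in the list were 1.06 for ETV4, a transcription factor downstream of the pathway (SE 0.415, adjusted p = 0.266), and -0.91 for SPRY2, a feedback inhibitor (SE 0.4, adjusted p = 0.325). ETV4 was between -0.08 and 1.15 in fast and between -2.09 and 2.08 in slow tumors, and the fast tumors lay inside the range of the slow ones. The top of that range was tumor 2, with the next slow tumor at 0.12. All 10 fast tumors lay above the slow median of -0.10, and 6 slow tumors lay below every fast tumor.

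No immune cell marker passed the test under limma, as 0.827% of all tested genes did. Over all tested genes 57.4% of differences were negative and 13.8% had an unadjusted p of at most 0.05. Of 17 tested macrophage and myeloid markers, all 17 differences were negative, with a median of -0.66, and 6 had an unadjusted p of at most 0.05. The integrin ITGAM was between -1.33 and 0.68 in fast and between -0.50 and 1.94 in slow tumors, with a difference of -1.10 (SE 0.298, adjusted p = 0.0952), and ITGAX had one of -0.81 (SE 0.311, adjusted p = 0.259). Of 18 T and cytotoxic cell markers, 17 differences were negative (median -0.77). CD8A, the coreceptor of cytotoxic T cells, was between -3.63 and 0.40 in fast and between -1.80 and 1.86 in slow tumors, a difference of -1.94 (SE 0.615, adjusted p = 0.168), CD5 had one of -1.18 (SE 0.406, adjusted p = 0.205), and CD3E one of -1.26 (SE 0.694, adjusted p = 0.429). Among 12 B and plasma cell markers 10 differences were negative (median -0.78). The members with the largest absolute t were POU2AF1, the coactivator of B cells, at -2.18 (SE 1.00, adjusted p = 0.342), and TNFRSF17, the BCMA receptor of plasma cells, at -0.56 (SE 0.24, adjusted p = 0.315). The T and B lists each had 2 members with an unadjusted p of at most 0.05.

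Interferon-stimulated genes had negative differences in all 15 tested members, compared with 57.4% over all tested genes, with a median of -0.41, none of which passed and none of which had an unadjusted p of at most 0.05. GBP1, a guanylate-binding protein, was at -0.64 (SE 0.346, adjusted p = 0.421) and the transcription factor IRF9 at -0.34 (SE 0.27, adjusted p = 0.588). In the stromal lists no member passed either. The median was -0.37 over 17 fibroblast and matrix markers, -0.17 over 9 smooth muscle markers, -0.03 over 11 endothelial markers and -0.01 over 6 Schwann and nerve markers, with 0 members past the threshold and 0 with an unadjusted p of at most 0.05 in each of the 4. The collagen COL1A1 had a difference of -0.24 (SE 0.631, adjusted p = 0.888), the collagen crosslinker LOX one of -0.92 (SE 0.475, adjusted p = 0.4), and PDPN, podoplanin, one of -0.67 (SE 0.512, adjusted p = 0.571). ESAM and TIE1 of endothelium were at 0.36 and -0.70, SMTN and TAGLN of smooth muscle at 0.26 and -0.30, and ERBB3 of the Schwann and nerve list at 0.17, with adjusted p from 0.447 to 0.843 (limma). TAGLN was between -1.92 and 3.23 in fast tumors (median -0.93) and between -1.46 and 1.42 in slow tumors (median 0.21). ERBB3 stands also in the urothelial and growth factor lists, and its median in the normals was -2.09, whereas the mean of the Schwann and nerve list had a normal median of 2.77.

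**Figure D5:**
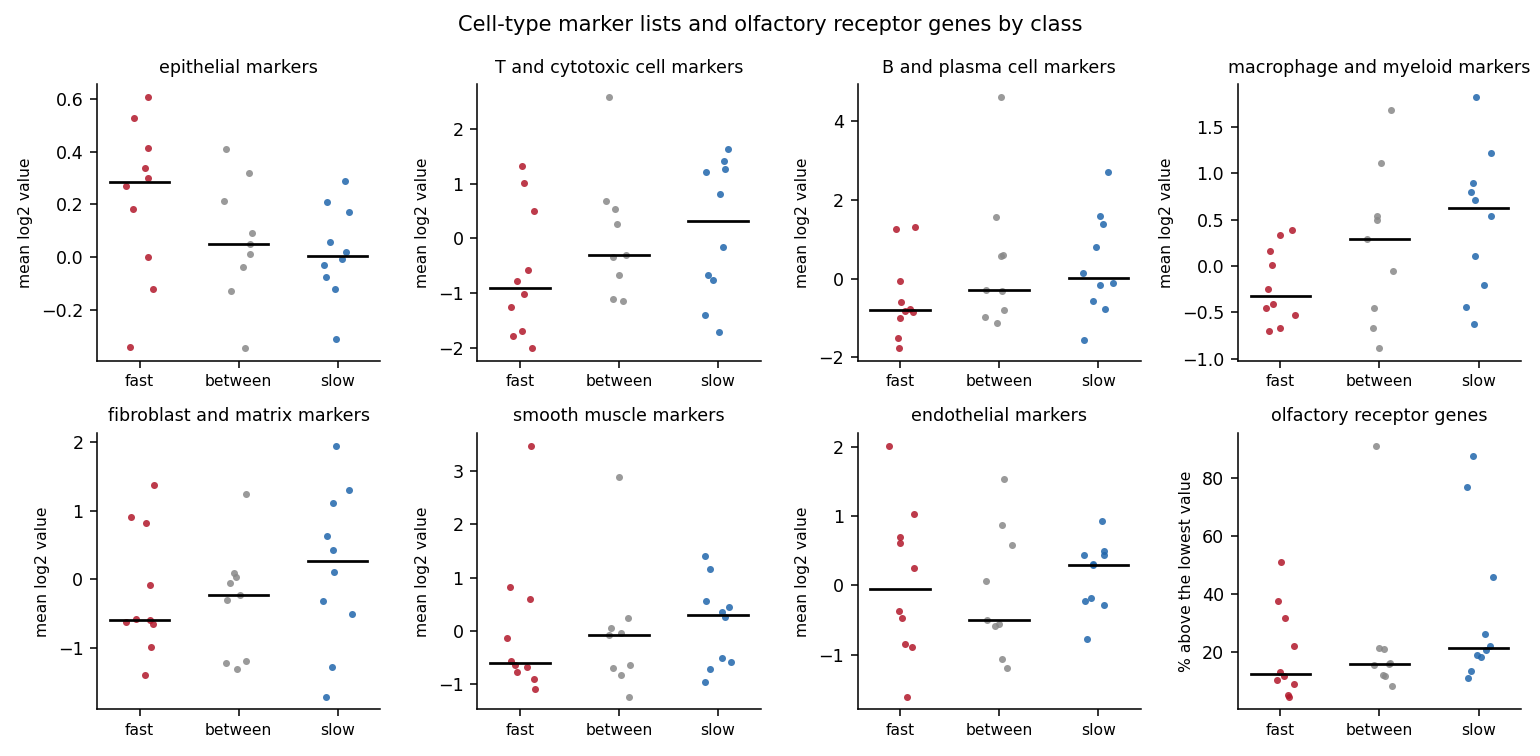
Mean log2 value of 7 lists of cell-type markers, and the percentage of olfactory receptor genes that exceeded the lowest value, in the fast, between and slow tumors; each point is a tumor and each bar a median. The classes overlap in every panel, with myeloid medians of -0.33 in fast and 0.63 in slow tumors.

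The marker lists also describe the makeup of the biopsies. The mean of the 12 epithelial markers tested, among them EPCAM and CDH1, was between -0.34 and 0.61 in fast tumors (median 0.29) and between -0.31 and 0.29 in slow tumors (median 0.01), and none of the 12 was at the lowest value in any of the 20 tumors. Of these 12, 10 differences were positive, with a median of 0.21, 0 passed under limma, and 4 had an unadjusted p of at most 0.05, compared with 13.8% of all tested genes. CDH1 (E-cadherin) had a difference of 0.57 (SE 0.22, adjusted p = 0.261) and OVOL2, an epithelial transcription factor, one of 0.52 (SE 0.178, adjusted p = 0.203). The mean of the myeloid markers was between -0.70 and 0.39 in fast tumors and between -0.62 and 1.83 in slow tumors, and that of the T cell markers between -2.00 and 1.32 and between -1.71 and 1.62. With the epithelial mean as a covariate, 2 genes passed upward and 2 downward. All 112 and all 47 kept their direction, with medians of 1.05 and -1.62. They had been selected on the gap between the classes in the same tumors, so a kept direction was likely. The methods of the study give a high share of epithelial cells as a criterion for the tumors. The part of cell makeup in the differences was not tested. In bulk tissue, fewer cells of a type and less RNA per cell cannot be told apart.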

How the data were processed

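RNA was extracted from 29 tumors and 4 normal samples, depleted of ribosomal RNA, and sequenced as paired ends in 1 batch. The authors aligned the reads to CanFam 3.1 with COBWeb, quantified genes in Strand NGS 3.1, normalized them by TMM and by DESeq, and deposited 2 tables of log2 values from which the gene's own median in 33 samples had been subtracted. Read counts per sample are not known, so no count test was run, and precision was judged from the spread between tumors, each from a different dog. The TMM table, with 25096 genes, was used; 12202 genes carry a symbol in it and 777 were named through a RefSeq table. Both tables as used here stop partway through a row of chromosome 26, in an order by chromosome, and that row was dropped, so most genes of later chromosomes are not analysed here, and counts and percentages cover the genes in the table. Genes were tested if above a lowest value shared by samples in at least 10 tumors, or without such a value (19232 genes). Fast tumors were tested against slow tumors in limma 3.58.1 (R 4.3.3, eBayes without trend, no pseudocount, no covariate), with Benjamini-Hochberg adjustment and a threshold of 0.05, and library measures with permutation tests in scipy 1.17.1. The fit was tested on simulated data. Besides genes set in advance, the text names the 2 members of each list with the largest absolute t. It also names the 8 most raised and 8 most lowered genes by fold among called genes above the lowest value in at least 20 tumors or without one. These are the 71 named genes searched below for changes of sign and for samples that stand apart. Other genes in the text, such as CENPA, CDC20 and ORC4, fall outside these rules and were not part of those searches. The tumors, lists and rules were chosen with earlier results of these data known. Alternatives were the authors' DESeq table, other filters, thresholds, class sizes, scores, scalings and covariates, and each of the 20 tumors left out. A few genes and 1 list are not reported here. Promoter sequences and gene coordinates were not used here.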

Additional observations from a re-analysis of the deposited data

Results flagged for a closer look

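A sample far from the rest of its class was sought in 149 sets of values (the score in the 3 classes, and 2 library measures and 71 named genes in the fast and in the slow class), and 27 were found. Chance flags about 1 in 20 such sets.

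Slow tumor 2 accounts for 14 of the 27. Its score of -1.87 lay apart from the next at -0.998, and it was lowest, each value followed by that of the nearest slow tumor, for CCNB1 (-2.24 and -0.84), MYBL2 (-3.47 and -1.22), MCM2 (-2.00 and -0.77), RRM2 (-2.50 and -0.80), SPC24 (-2.84 and -1.48), CENPN (-2.27 and -1.19), E2F8 (-2.91 and -0.76), TK1 (-2.43 and -1.17), FANCD2 (-1.78 and -0.74), DIAPH3 (-2.98 and -0.66) and KIF18B (-3.67 and -1.54). The same tumor was highest among slow tumors for CDKN1A, the p21 inhibitor, at 2.22 and for ETV4 at 2.08. The remaining slow tumors that stood apart were tumor 11, at 2.25 for ERBB2, and tumor Za, at -1.27 for LIN9.

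Among fast tumors, tumor 18 stood apart upward for MCM2 (1.35) and CHEK1 (1.20), and tumor CH for EZH2 (1.15). Tumor 12 was highest for PFKP (2.65) and RAMP1 (2.35) and lowest for ITGAX (-2.06). Tumor JE was lowest for ERBB2 (-0.59), ERBB3 (-0.95) and ADGB (-4.25). Tumor Mis was highest for KRT20 (3.90), and tumor 1 was lowest for NEIL3 (-2.48).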

How the results depend on the processing

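In 7 of the 20 alternatives (limma with trend, both other filters, a 2-fold threshold, 3 groups, and scores without PLK1 or TPX2) the differences are the same by construction. All 112 higher and all 47 lower genes kept their direction in the 13 others and in each of the 20 fits without a tumor. Among the 13, scores without TOP2A or CDK1 gave the same fit. No named gene past the threshold reversed. The called genes had been selected on the gap between the classes in largely the same tumors, so a kept direction was likely from the start. The counts were less stable. The authors' DESeq table, limma with trend, both other filters, a 2-fold threshold, 3 groups, centred tumors, and scores without AURKA, PLK1, TPX2, TOP2A or CDK1 gave counts within 1.5 times of 112 and 47. The genes behind them changed: of the 47 lower genes 24 were still called without TOP2A or CDK1, 29 without AURKA, 29 with 3 groups and 15 with the score as a number, and of the 112 higher genes 78, 83, 105 and 100. With 7 tumors a class 5 genes were higher and 15 lower, and with 14 a class 10 and 1. With the score as a number 255 and 82 were called. The number of genes at the lowest value as a covariate left 32 and 9, the epithelial mean left 2 and 2, and a score without BIRC5 gave 68 and 26. Of the alternatives chosen after seeing the data, the olfactory receptor share as a covariate gave 74 and 32, and leaving out the 4 tumors with many such genes gave 0 and 0, with fewer samples. Leaving out each tumor in turn gave 49 to 141 higher and 20 to 72 lower genes. Some settings also bring a loss of samples. The cause of these changes in the counts was not tested.

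The 8 named genes, none of them past the threshold, that changed sign follow. Leaving out each tumor in turn gave -0.153 to 0.174 for CDKN1A, -0.192 to 0.101 for ERBB2, -0.0473 to 0.239 for FGFR3 and -0.265 to 0.102 for UPK2. ERBB2 was also at 0.0843 with 14 tumors a class. FGFR3 was at -0.0888 with 14 a class, -0.0541 with the score as a number and -0.12 without the 4 olfactory tumors. UPK2 was at 0.18 with 14 a class, 0.23 with the score as a number, 0.15 without TOP2A or CDK1 and 0.0365 without BIRC5. With the epithelial covariate COL1A1 was at 0.46, TAGLN at 0.38 and ERBB3 at -0.0154, and without the 4 olfactory tumors COL1A1 was at 0.16 and TAGLN at 0.0462. SMTN was at -0.0688 with 7 a class, -0.0345 with 14 and -0.0535 with the score as a number.

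No paired analysis was possible because each tumor came from a different dog. Depth per sample is not known, and values near the lowest cannot separate low from absent expression.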
